A study of Zea mays with 12 samples.

Results

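Ethylene is made in plants from methionine, which SAM synthases turn into S-adenosylmethionine. ACC synthase (ACS) then forms 1-aminocyclopropane-1-carboxylic acid (ACC), and ACC oxidase (ACO) turns ACC into ethylene. Both enzymes are encoded by small gene families, and in many plants single members respond to wounding, pathogens, hypoxia or development, so that the family member, and not only the step, is of interest in damaged plants.

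The genes described here are a list of 8 maize genes of these last steps, 3 ACC synthases (acs2, acs6 and acs7) and 5 ACC oxidases, among 29723 features of the count table that carry a maize gene identifier. The genes were chosen by their place in the pathway, after their fold changes between these same libraries had been seen. Members were found by their identifier in the table, and 7 of the 8 had a row, each in a feature of its own. GRMZM2G054361 (acs6) had no row and was not analysed here. The identities rest on different evidence. The deposited descriptions name GRMZM2G164405 (acs2), GRMZM2G072529 (ACO31) and GRMZM2G052422 as an ACC synthase and ACC oxidases, RefSeq carries the names acs7 for GRMZM5G894619 and ACO20 for GRMZM2G126732, and the study's annotation lists GRMZM2G013448 as an ACC oxidase. GRMZM2G332423 was listed as an ACC oxidase, but the deposited description calls it uncharacterized and RefSeq gave no match, so its place in the family rests on the list alone.

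The stem transcriptome of the inbred maize line PB130 was measured at day 15 in 4 treatments with 3 libraries each, labelled as biological replicates. The study's methods name 3 plants per treatment with 1 library each, whereas the labels speak of 15 plants per genotype and treatment, so it is not settled whether a library is 1 plant or several. Larva plants carried caterpillars of the stem borer *Sesamia nonagrioides* between sheath and stem, regurgitate plants had scalpel wounds on the leaf sheaths that received caterpillar regurgitate in phosphate buffer, wounding plants had the same wounds with buffer alone, and control plants were untreated. Wounding and application were repeated every other day, and an undamaged piece of the internode below the ear was taken without its sheath, so the wounded organ itself was not sampled and the control plants had received neither wound nor buffer. In massive analysis of cDNA ends (MACE) a transcript contributes a single fragment, next to its poly(A) tail, so that a level normalized to library size (CPM) does not grow with transcript length and levels of different genes can be set side by side.

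Library totals ran from 5651382 to 10056972 counts. Maize genes took 84.9% to 89.1% of the counts in larva libraries, 44.2% to 93.1% in regurgitate libraries, 58.4% to 74.4% in wounding libraries and 87.5% to 89.7% in control libraries. Much of the rest lay on assembled contigs, and contigs described as proteins of 6 fungal genera took 0.247% to 3.34% of the counts in larva, 0.087% to 14.8% in regurgitate, 10.95% to 24.9% in wounding and 0.261% to 0.525% in control libraries. Larva replicates 2 and 3 were nearly alike, with a chi-square per degree of freedom of 1.55 over 20761 genes, against 16.6 to 67.8 in the other 11 replicate pairs. They differed by slightly more than counting noise and were kept as 2 samples. Of the markers of stem with secondary walls, 3 were used, the COBRA-like gene bk2 and the cellulose synthases CesA11 and CesA12, and their summed level was 51.5 to 169.5 CPM in larva, 19.3 to 55.3 CPM in regurgitate, 5.83 to 8.83 CPM in wounding and 60.2 to 171.9 CPM in control libraries, with CesA11 at 0 in regurgitate replicate 3 and in wounding replicates 1 and 2. Wounding libraries were thus below all others in this sum, most of which was bk2 except in wounding replicates 1 and 3 and regurgitate replicate 2, whereas CesA12, at 6.20, 2.59 and 4.22 CPM in wounding, overlapped with every other treatment. The wounding libraries and regurgitate replicates 1 and 2 were above all larva and control libraries in fungal counts. In bulk tissue fewer cells of a type and less RNA per cell cannot be told apart. The part of either in the results below was not tested.

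**Figure D1:**
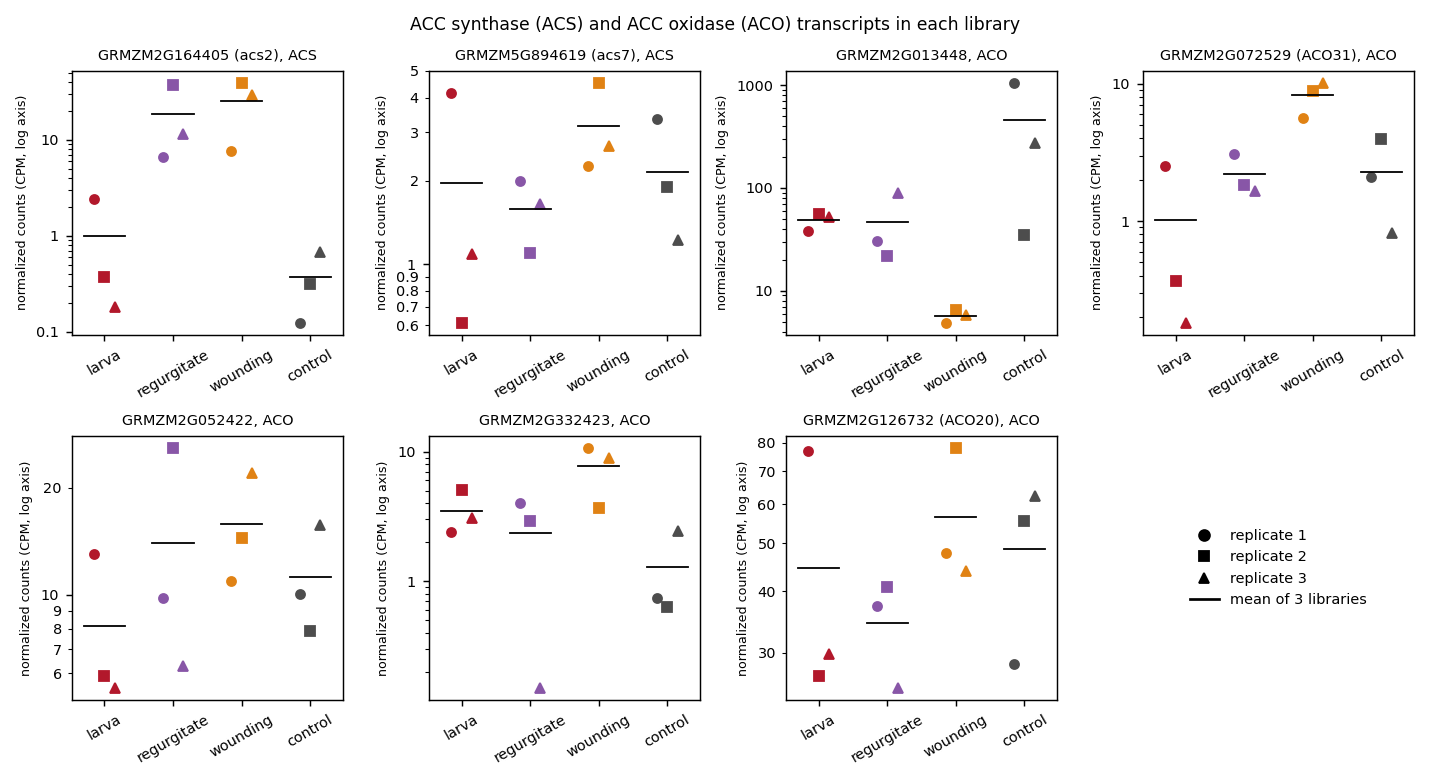
Normalized level (CPM, log axis) of the 7 ACC synthase and ACC oxidase genes in larva, regurgitate, wounding and control libraries, with 1 point per library and a bar at the mean of 3. In the panel of acs2 all regurgitate and wounding libraries, at 6.66 CPM or more, sit above all larva and control libraries, and in the panel of GRMZM2G013448 the 3 wounding libraries, at 4.88 to 6.47 CPM, sit below all others.

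Of the 2 ACC synthases with a row, 1 made up most of their transcripts in stems of plants with scalpel-wounded sheaths. GRMZM2G164405 (acs2) had 2.41, 0.368 and 0.182 CPM in larva replicates 1 to 3, 6.66, 37.6 and 11.5 CPM in regurgitate replicates, 7.70, 39.5 and 29.3 CPM in wounding replicates, and 0.124, 0.317 and 0.681 CPM in control replicates. Every library of the scalpel-wounded treatments was thus above every library of the others, while larva and control libraries overlapped. The mean was 0.987 ± 1.24 CPM in larva, 18.6 ± 16.6 CPM in regurgitate, 25.5 ± 16.2 CPM in wounding and 0.374 ± 0.283 CPM in control stems (SD, n = 3 each). The control value rests on 1, 2 and 5 counts. In order of level, wounding stood first, then regurgitate, larva and control, and neither wounding and regurgitate nor larva and control, the neighbours in that order, differed beyond their spread. Regurgitate and larva libraries did not overlap, and that pair was not tested.

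In the fits across all genes with edgeR's quasi-likelihood test, acs2 rose with wounding against control by 6.04 on the log2 scale (SE 0.813, 65.7-fold, FDR 0.00223) and with regurgitate against control by 5.54 (SE 0.906, 46.7-fold, FDR 0.0481). It was lower in larva than in wounding stems by 23.2-fold (log2 fold change -4.53, SE 0.892, FDR 0.00725). Without larva replicate 1, which had 22 counts of acs2, that log2 fold change was -6.36. It then rests on 3 and 1 counts in larva replicates 2 and 3, which were nearly alike, so its size is poorly fixed. Regurgitate against wounding gave -0.51 (SE 0.781, FDR 0.757). Against control, larva was not tested, because acs2 did not pass the filter on low counts in those 6 libraries. The regurgitate call against control was lost without regurgitate replicate 1 (FDR 0.0731), without control replicates 1, 2 or 3 (FDR 0.146, 0.181 and 0.137) and with every feature in the fit (FDR 0.114), and the wounding call held in each fit without 1 library (FDR 0.000978 to 0.0135). The genes were listed with results of these libraries known, so all FDRs of members given here describe them and are no independent evidence.

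Fungal counts and acs2 were set side by side as a description. Regurgitate replicate 3 had the lowest share of fungal counts of all 12 libraries, 0.087%, and acs2 was at 11.5 CPM there, above regurgitate replicate 1, which had 4.66% fungal counts and 6.66 CPM. Among the other 11 libraries, acs2 was highest in the 2 with the largest fungal shares, wounding replicate 2 (24.9%, 39.5 CPM) and regurgitate replicate 2 (14.8%, 37.6 CPM). The part of fungal reads in the level of acs2 was not tested.

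**Figure D2:**
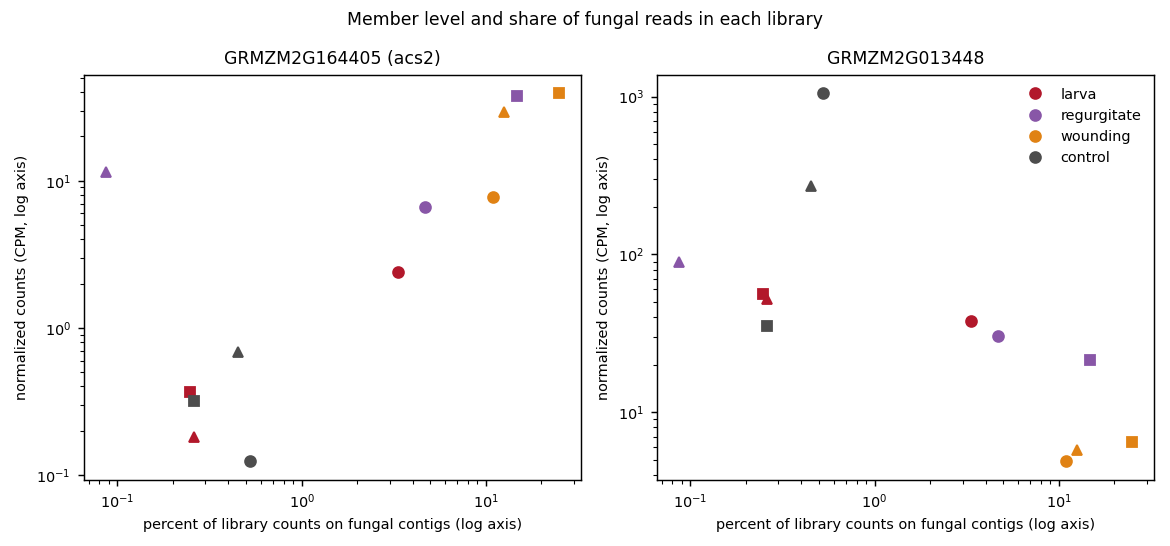
Level of acs2 and of GRMZM2G013448 (CPM, log axis) against the percent of library counts on fungal contigs (log axis), with 1 point per library, coloured by treatment and shaped by replicate number (circle 1, square 2, triangle 3). Regurgitate replicate 3 stands alone at the upper left of the acs2 panel, with 0.087% fungal counts and 11.5 CPM.

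GRMZM5G894619 (acs7), the other ACC synthase with a row, was low in all treatments. It had 4.17, 0.613 and 1.09 CPM in larva, 1.998, 1.09 and 1.65 CPM in regurgitate, 2.25, 4.53 and 2.66 CPM in wounding, and 3.36, 1.90 and 1.23 CPM in control libraries. The treatments overlapped except that each wounding library was above each regurgitate library, and no comparison passed the threshold (log2 fold change with regurgitate against wounding -0.97, FDR 0.313, with wounding against control 0.54, FDR 0.409). Without larva replicate 1, the highest larva library, larva was lower than wounding by a log2 fold change of -1.91 (FDR 0.0354). That fit rests on larva replicates 2 and 3, which were nearly alike. Its FDR thus reflects almost no spread between larva libraries, and no difference is read from it.

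The summed level of both synthases was 2.94 ± 3.15 CPM in larva, 20.2 ± 16.2 CPM in regurgitate, 28.6 ± 17.3 CPM in wounding and 2.53 ± 0.834 CPM in control stems (SD, n = 3 each). Of the synthase counts, acs2 made up 14.3% to 37.5% in larva, 76.9% to 97.2% in regurgitate, 77.4% to 91.7% in wounding and 3.57% to 35.7% in control libraries. Larva and control shares rest on few counts. Larva replicates 2 and 3 had 3 and 1 counts of acs2 beside 5 and 6 of acs7. Control replicates 2 and 3 had 2 and 5 of acs2 beside 12 and 9 of acs7. Of these 2 genes, stems of plants with scalpel-wounded sheaths thus held mostly acs2. The counts of larva and control stems, few as they were, were mostly acs7.

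Among the ACC oxidases, GRMZM2G013448 showed the widest range of any member, both between treatments and among control libraries. It was at 38.0, 56.3 and 52.1 CPM in larva replicates 1 to 3, at 30.4, 21.5 and 89.3 CPM in regurgitate replicates, at 4.88, 6.47 and 5.77 CPM in wounding replicates, and at 1054.5, 35.1 and 272 CPM in control replicates. The 3 wounding libraries lay close together and below all others. Control replicate 2 lay within the range of the regurgitate libraries and below all larva libraries, whereas control replicates 1 and 3 lay above every treated library. The means were 48.8 ± 9.58 CPM in larva, 47.1 ± 36.8 CPM in regurgitate, 5.71 ± 0.797 CPM in wounding and 454 ± 534 CPM in control stems (SD, n = 3 each), so the order of means was control, larva, regurgitate and wounding, and only wounding did not overlap with its neighbour in that order.

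The study itself, with DESeq at an FDR under 0.05, reported this gene lower after larval feeding and higher after regurgitate. In edgeR's quasi-likelihood test used here, both of the study's own comparisons left it above the FDR threshold. Larva against control gave a log2 fold change of -3.23 (SE 1.04, FDR 0.399), which moved to -1.66 when control replicate 1 was left out. Regurgitate against wounding gave 3.04 (SE 0.580, 8.22-fold, FDR 0.0820) with groups that did not overlap. With the replicate numbers as pairs that value was 2.77 (FDR 0.0700), without regurgitate replicate 3 it was 2.21 (FDR 0.203), and without regurgitate replicate 2 it was 3.41 (FDR 0.0433). DESeq2 on the same libraries gave an FDR of 0.162 for larva against control and of 4.86e-05 for regurgitate against wounding. The larva response minus the regurgitate response, tested in 1 fit of all 12 libraries, was -6.25 on the log2 scale (SE 1.34, FDR 0.0518), and it passed with no filter on low counts (FDR 0.0392), by DESeq2 (FDR 4.57e-05) and in some of the fits that left out 1 library (FDR 0.0240 to 0.132). With the filter, 1.15% of all genes were called in that test and 0 of 7 members, of which 2 had an unadjusted p under 0.05, as had 17.0% of all genes.

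Set against control stems, GRMZM2G013448 fell with wounding by 78.7-fold (log2 fold change -6.30, SE 1.22, FDR 0.00764). The call held in each fit without 1 library, with log2 fold changes of -6.85 to -4.73, the value nearest 0 being that without control replicate 1. Larva stems were 8.50-fold above wounding stems (log2 fold change 3.09, SE 0.221, FDR 0.000399). Regurgitate against control gave -3.27 (SE 1.17, FDR 0.207 in edgeR and 0.0160 in DESeq2), and -1.69 without control replicate 1. All 3 secondary wall markers were, like GRMZM2G013448, lowest on average in wounding stems. The gene bk2 averaged 105 ± 48.1 CPM in larva, 25.7 ± 16.6 CPM in regurgitate, 2.84 ± 0.341 CPM in wounding and 110.1 ± 47.1 CPM in control stems (SD, n = 3 each). CesA11 averaged 13.3 CPM in larva, 1.01 CPM in regurgitate, 0.0740 CPM in wounding and 10.4 CPM in control stems. CesA12 overlapped between all treatments, at a mean of 7.002 CPM in larva, 7.39 CPM in regurgitate, 4.33 CPM in wounding and 5.10 CPM in control stems. Their part in the level of GRMZM2G013448 was not tested.

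GRMZM2G072529 (ACO31) was highest in wounding stems, where GRMZM2G013448 was lowest, and stood at 10.2 CPM or less in each library. It had 2.52, 0.368 and 0.182 CPM in larva, 3.11, 1.82 and 1.65 CPM in regurgitate, 5.63, 8.85 and 10.2 CPM in wounding, and 2.11, 3.96 and 0.817 CPM in control libraries. All 3 wounding libraries were above the other 9. It rose with wounding against control by 3.62-fold (log2 fold change 1.86, SE 0.542, FDR 0.0324), and it was lower in larva than in wounding stems by 7.31-fold (-2.87, SE 0.748, FDR 0.0198). Both calls were weak. The first was lost without wounding replicates 2 or 3 (FDR 0.0766 and 0.0904), without control replicates 1 or 3 (FDR 0.0815 and 0.0640), with every feature in the fit (FDR 0.0660) and with all 12 libraries in 1 fit (FDR 0.0621). The second was lost without larva replicates 2 or 3 (FDR 0.0654 and 0.0524) and without wounding replicate 3 (FDR 0.0518). It was also lost with larva replicates 2 and 3 summed (FDR 0.0625) and with every feature in the fit (FDR 0.0866). Without larva replicate 1 the log2 fold change was -4.73 (FDR 0.00285), resting on 3 and 1 counts in larva replicates 2 and 3. These were nearly alike, so that FDR reflects almost no spread between larva libraries, and no difference is read from it. Regurgitate against wounding gave -1.91 (SE 0.425, FDR 0.0916 in edgeR and 0.00847 in DESeq2), with groups that did not overlap.

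GRMZM2G332423, listed as an ACC oxidase, was also highest in wounding. Its levels were 2.41, 5.03 and 3.09 CPM in larva, 3.996, 2.92 and 0.150 CPM in regurgitate, 10.7, 3.67 and 8.88 CPM in wounding, and 0.746, 0.633 and 2.45 CPM in control libraries. Wounding and control did not overlap, and wounding was higher by 6.02-fold (log2 fold change 2.59, SE 0.626, FDR 0.0169), a call that was lost without wounding replicate 1 (FDR 0.0502) and without control replicate 2 (FDR 0.0580). Larva against control gave 1.43 (FDR 0.482) and regurgitate against wounding -1.79 (FDR 0.322).

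The 2 remaining ACC oxidases passed the threshold in no comparison with all libraries kept. GRMZM2G126732 (ACO20) was at 77.2, 26.9 and 29.8 CPM in larva, 37.3, 40.9 and 25.4 CPM in regurgitate, 47.7, 78.1 and 43.9 CPM in wounding, and 28.5, 55.6 and 62.4 CPM in control libraries. Larva replicate 1 stood well above the other 2 larva libraries, and without it larva was lower than wounding by a log2 fold change of -1.01 (FDR 0.0399), against -0.34 (FDR 0.564) with it. Every regurgitate library was below every wounding library (log2 fold change -0.74, FDR 0.251). GRMZM2G052422 had 13.0, 5.89 and 5.45 CPM in larva, 9.77, 25.9 and 6.28 CPM in regurgitate, 10.9, 14.5 and 22.0 CPM in wounding, and 10.1, 7.91 and 15.7 CPM in control libraries. All its treatments overlapped, and without larva replicate 1 its larva level was below wounding by a log2 fold change of -1.48 (FDR 0.0220), against -0.94 (FDR 0.108) with it. For both genes the fit without larva replicate 1 rests on larva replicates 2 and 3, which were nearly alike. Those FDRs thus reflect almost no spread between larva libraries, and no difference is read from them.

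**Figure D3:**
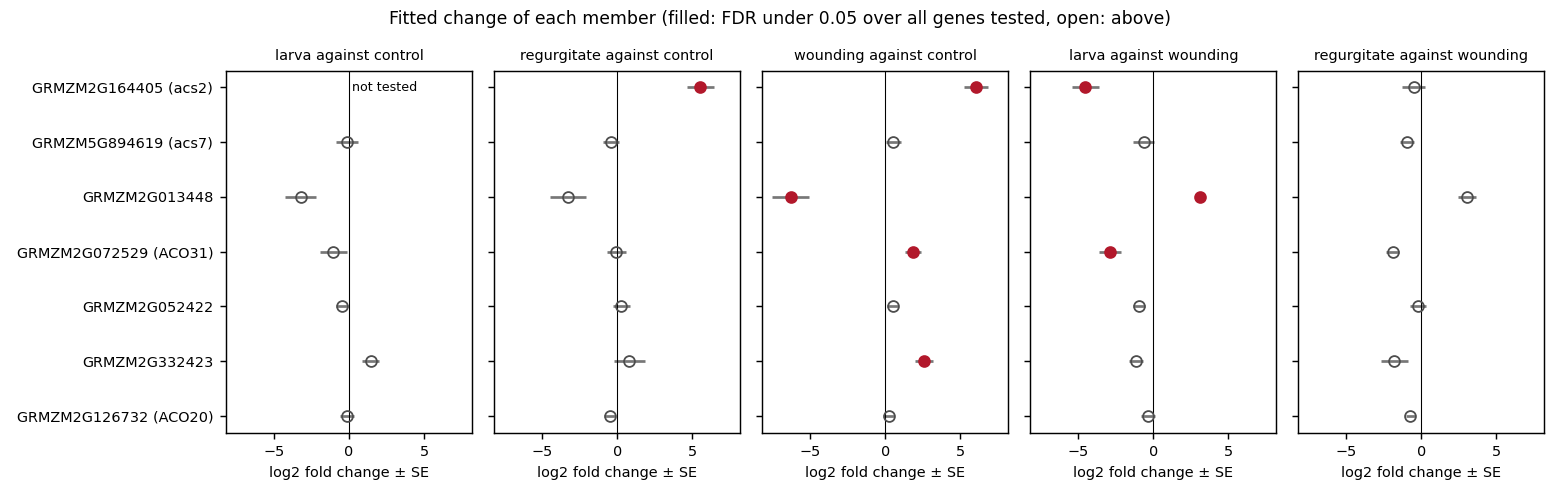
Fitted log2 fold change ± SE of each member in 5 comparisons, filled where the FDR over all genes tested was under 0.05. With wounding against control, acs2 lies at 6.04, GRMZM2G332423 at 2.59, ACO31 at 1.86 and GRMZM2G013448 at -6.30, whereas no point is filled in larva against control and in regurgitate against wounding.

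Counted over the list, larva against control called 0 of the 6 members tested, and 0% of all genes passed there (9.78% had an unadjusted p under 0.05, as did 2 members, and DESeq2 called 1.39% of all genes and 0 members). Regurgitate against wounding also called 0 of 7, with 0.0602% of all genes called and 3 members at an unadjusted p under 0.05, against 19.8% of all genes. DESeq2 called 2 of the 7, GRMZM2G013448 higher and ACO31 lower, with 8.93% of all genes called by that tool. With the replicate numbers as pairs, edgeR called 0 genes in this comparison in place of 11. In 4 of the 7 members the regurgitate and wounding libraries did not overlap, 1 higher and 3 lower in regurgitate, against 26.4% of all genes, 12.6% higher and 13.8% lower.

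Wounding against control called 4 of 7 members, 3 higher and 1 lower, or 57.1%, with 38.8% of all genes called, 19.6% higher and 19.3% lower. The same 4 members did not overlap between these groups, as 55.1% of all genes did not. The 3 higher members passed the filter on low counts only through their wounding libraries. In control replicates 1 to 3, acs2 had 1, 2 and 5 counts, GRMZM2G332423 6, 4 and 18, and ACO31 17, 25 and 6. Their calls thus describe genes kept because wounding was high, and the share is no evidence about the members. Regurgitate against control called 1 of 7, acs2, or 14.3%, with 1.28% of all genes called and 1.08% higher. There acs2 passed the filter only through the regurgitate libraries, so the same limit holds. Larva against wounding called 3 of 7, 1 higher and 2 lower, or 42.9%, with 43.6% of all genes called, 21.5% higher and 22.2% lower. Those 3 members did not overlap between larva and wounding either, as 59.2% of all genes did not. Here too the 2 lower members, acs2 and ACO31, passed the filter only through the wounding libraries. The members' median log2 fold change was 0.54 with wounding against control, -0.94 with larva against wounding and -0.74 with regurgitate against wounding, and the medians of all genes were -0.01, 0.01 and -0.02. With larva against wounding the share of members called was thus near that of all genes. These comparisons share the wounding or the control libraries, so their values are not independent of each other.

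The 5 oxidases summed to 106 ± 23.5 CPM in larva, 100.2 ± 20.1 CPM in regurgitate, 94.0 ± 16.1 CPM in wounding and 517 ± 516 CPM in control stems (SD, n = 3 each), and the control libraries ran from 103 to 1096 CPM. GRMZM2G013448 made up 28.6%, 59.6% and 57.5% of the oxidase counts in larva libraries, 36.0%, 23.1% and 72.7% in regurgitate libraries, 6.12%, 5.80% and 6.36% in wounding libraries and 96.2%, 34.0% and 77.0% in control libraries. The other 4 oxidases together averaged 57.3 CPM in larva, 53.1 CPM in regurgitate, 88.3 CPM in wounding and 63.6 CPM in control stems. The sum of the 5 listed oxidases in wounding thus lay near that in larva and regurgitate stems, with a smaller share of GRMZM2G013448. Other genes described as ACC oxidases lay outside this sum, among them GRMZM2G166639, at a mean of 112.6 CPM in wounding stems. In wounding stems ACO20 was the most abundant listed oxidase in each library, and in control replicates 1 and 3 it was GRMZM2G013448.

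**Figure D4:**
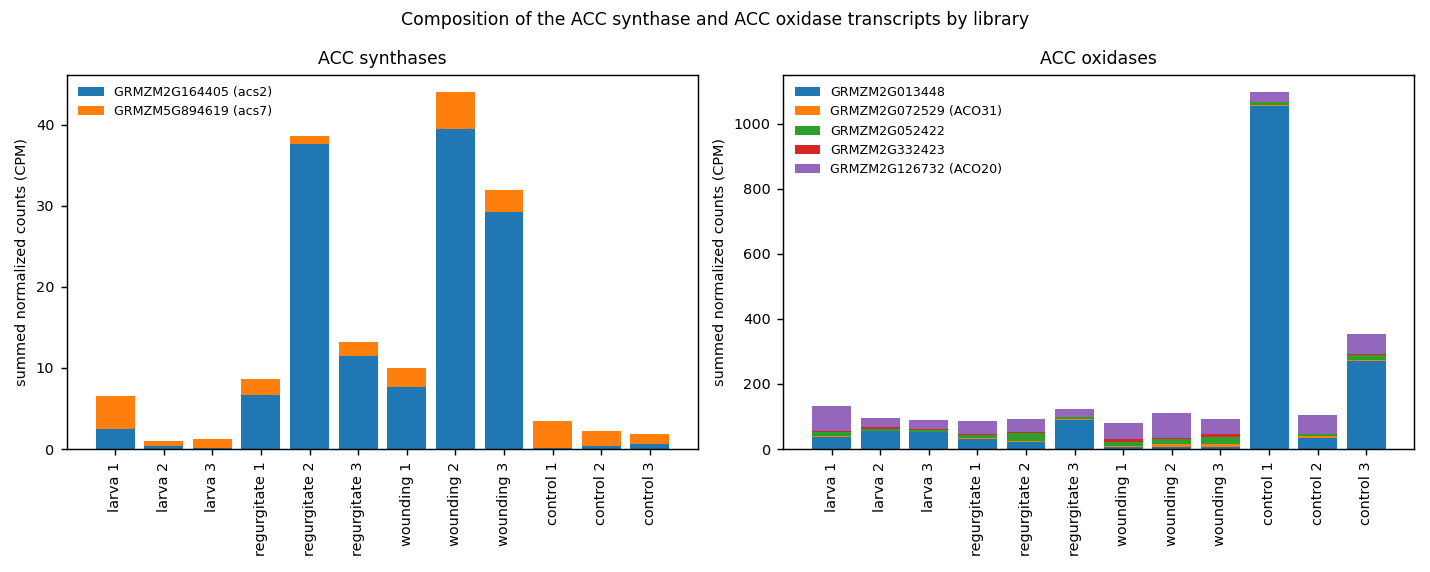
Summed level (CPM, linear axis from 0) of the listed ACC synthases and of the listed ACC oxidases in each of the 12 libraries, stacked by gene. The synthase bars of regurgitate and wounding libraries are mostly acs2, and the oxidase bar of control replicate 1, at 1096 CPM, is mostly GRMZM2G013448.

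Reads on near-identical copies could be placed at up to 10 locations, and how such reads were shared between genes is not given in the sources used here, so levels of single ACC oxidases carry that uncertainty. Over the 12 libraries, members differed in how far they moved together. As a description of log2 CPM values that share libraries and depth, Pearson's r was 0.65 for acs2 with ACO31, 0.74 for acs7 with ACO31, -0.69 for acs2 with GRMZM2G013448 and -0.64 for GRMZM2G013448 with GRMZM2G332423.

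Genes whose log2 CPM over the 12 libraries was most like that of a member were looked up as a description. For GRMZM2G013448 they were GRMZM2G085964, described as an AP2/EREBP transcription factor (Pearson's r 0.96), GRMZM2G180262, a VQ protein (0.96), and GRMZM2G107495, uncharacterized (0.96). GRMZM2G085964 was at 6.69, 26.7 and 23.6 CPM in larva, 7.33, 4.01 and 19.4 CPM in regurgitate, 1.13, 1.08 and 0.444 CPM in wounding, and 153.0, 4.12 and 49.0 CPM in control libraries, so it too was lowest in wounding and ran apart among control libraries, with replicate 1 highest and replicate 2 lowest. The nearest gene to acs2 was GRMZM2G335604, uncharacterized (0.98), to ACO31 the WRKY gene GRMZM2G137802 (0.97), to GRMZM2G052422 the Dof gene GRMZM2G179069 (0.92), and to acs7, GRMZM2G332423 and ACO20 the uncharacterized genes GRMZM2G008839 (0.92), GRMZM2G088795 (0.94) and GRMZM2G017654 (0.89).

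A wider list held 20 other genes of the pathway, of which 19 were tested, found by words of their descriptions. Larva against control, regurgitate against wounding and regurgitate against control called 0 of 19 each. Wounding against control called 4 higher and 4 lower, or 42.1%, beside 38.8% of all genes, with a median log2 fold change of -0.03 against -0.01 over all genes. Larva against wounding called 5 in each direction, or 52.6%, beside 43.6% of all genes.

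Upstream of ACC, the 4 genes called with wounding against control were all lower in wounding stems. SAM synthases make the S-adenosylmethionine that ACC synthase uses but also that of all methylation reactions. GRMZM2G054123 had 584, 881 and 842 CPM in larva, 565, 135 and 561 CPM in regurgitate, 180.3, 42.1 and 110.5 CPM in wounding, and 990.0, 587 and 732 CPM in control libraries. The wounding libraries were below all larva and control libraries, and regurgitate replicate 2 lay among them. The gene fell with wounding against control (log2 fold change -2.78, FDR 0.00721) and was higher in larva than in wounding stems (2.79, FDR 0.00573). GRMZM2G117198 averaged 219 ± 17.9 CPM in wounding and 533 ± 62.6 CPM in control stems (SD, n = 3 each, log2 fold change -1.27, FDR 0.00388). GRMZM5G896883, described as a nucleosidase of the Yang cycle that returns the methylthio group to methionine, averaged 3.26 ± 1.18 CPM in wounding and 14.6 ± 2.79 CPM in control stems (SD, n = 3 each, -2.13, FDR 0.00343). The most abundant Yang cycle gene, GRMZM2G464137, described as a methylthioribose kinase, averaged 190.4 ± 33.9 CPM in wounding and 208 ± 23.7 CPM in control stems (SD, n = 3 each, log2 fold change -0.12, FDR 0.682) and was called in no comparison.

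At the ACC oxidase step, 2 genes outside the list of members also rose with wounding against control. GRMZM2G166639 averaged 51.5 ± 16.04 CPM in larva, 63.5 ± 15.98 CPM in regurgitate, 112.6 ± 6.59 CPM in wounding and 48.6 ± 15.5 CPM in control stems (SD, n = 3 each), with a log2 fold change of 1.22 for wounding against control (FDR 0.00961) and of -1.13 for larva against wounding (FDR 0.00916). GRMZM2G166616 averaged 36.1 ± 13.0 CPM in wounding and 9.003 ± 5.24 CPM in control stems (SD, n = 3 each, log2 fold change 2.01, FDR 0.0146). In wounding stems GRMZM2G166639 was thus at a higher mean level than any of the 5 listed oxidases.

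Of the perception and signaling genes, 2 rose with wounding against control. They were GRMZM2G137582, an EIN3-binding F-box protein, a class known in Arabidopsis to target the EIN3 transcription factors for degradation, and GRMZM2G033570, an EIN3-like (EIL) transcription factor. The F-box gene averaged 24.3 ± 4.83 CPM in wounding and 10.3 ± 1.87 CPM in control stems (SD, n = 3 each, log2 fold change 1.24, FDR 0.00675) and was lower in larva than in wounding stems (-0.98, FDR 0.00970). The EIL gene averaged 242 ± 29.4 CPM in wounding and 151 ± 10.5 CPM in control stems (SD, n = 3 each, 0.69, FDR 0.0225). The receptor gene GRMZM2G102601 was lower in larva, at 32.5 ± 1.21 CPM, than in wounding stems, at 45.4 ± 3.39 CPM (SD, n = 3 each, log2 fold change -0.49, FDR 0.0253). GRMZM2G068217, the EIN2 gene whose product carries the signal from the receptors onward, averaged 87.9 CPM in wounding and 78.5 CPM in control stems (log2 fold change 0.17, FDR 0.488), and GRMZM2G039280, like the ETO1 protein that in Arabidopsis limits ACC synthase, averaged 9.32 CPM in wounding and 10.5 CPM in control stems (-0.15, FDR 0.613).

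**Figure D5:**
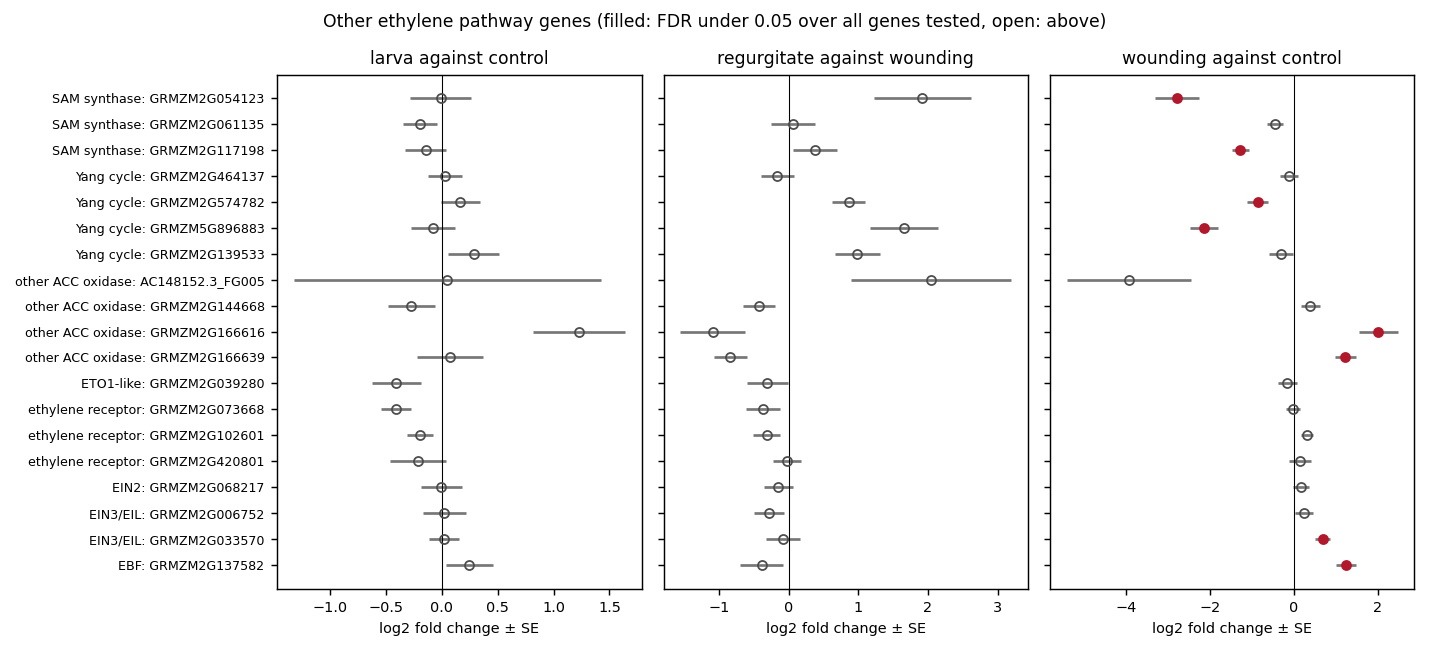
Fitted log2 fold change ± SE of 19 other ethylene pathway genes in larva against control, regurgitate against wounding and wounding against control, filled where the FDR over all genes tested was under 0.05. Filled points appear in the panel of wounding against control alone among these 3, with SAM synthase and Yang cycle genes to the left of 0 and ACC oxidase, EIL and EBF genes to the right.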

How the data were processed

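MACE libraries of maize stem, 3 per treatment, were used as the authors deposited them. Per the study's methods, copies of a read with the same barcode were removed, reads were trimmed with Cutadapt and placed with Novoalign 3.00.05 on Ensembl maize release 23, at no more than 10 locations each, and reads with no place were assembled, the contigs being compared with known proteins. The authors deposited raw counts per feature and library, which are the values used here. They also deposited group means normalized by DESeq, and p-values, FDRs and log2 fold changes of their own comparisons, none of which were used. Every count column matched a library by its header, and 0 columns were left without a library. The line of unmatched reads, 0.107% to 0.289% of the counts, was left out of library sizes and tests.

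Features with a maize gene identifier were tested in R 4.3.3 with edgeR 4.0.16 (limma 3.58.1): filterByExpr (minimum count 10, minimum total count 15), TMM scaling, and the two-sided quasi-likelihood F test on the 6 libraries of each pair of treatments, with Benjamini-Hochberg adjustment over the whole table and calls at an FDR under 0.05. Levels are CPM scaled by TMM over all 12 libraries, and log2 CPM used a prior count of 2. Replicates are the libraries the labels name as biological replicates, so an FDR measures the spread between 3 libraries of 1 line per treatment. The fits were also run on simulated counts of independent libraries in which a small set of genes was changed. That setting lacks the wide shifts and the nearly alike larva libraries of these data, so it does not bear on the calls given here. DESeq2 1.42.0, RLE scaling, no filter, every feature in the fit, all libraries in 1 fit, the replicate number as a block and leaving out each library were tried as alternatives, and for the larva comparisons also the sum of larva replicates 2 and 3. Same-numbered regurgitate and wounding libraries deviated together over genes (r 0.16, 0.32 and 0.16), all 3 over 0.1. Even so, the fit with the numbers as pairs was an alternative there and not the main fit. The values printed come from the fit without the block, and blocked ones are named as such. The other comparisons had no such pairing.

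The members and lists were chosen with earlier results of these data known. All members are named; of the wider ethylene list, the genes called in any pair of treatments are named, at most 3 per direction by FDR, and the most abundant gene of each role. Words of that list were corrected after the gene descriptions were read (a spelling of ACC oxidase and EIL were added, false matches such as aconitase were dropped), 1 marker whose description is a translation initiation factor was dropped, and the 6 fungal genera were chosen after the contigs were seen. No genome was used. Names from RefSeq (assembly Zm-B73-REFERENCE-NAM-5.0) matched 6 of the 8 members, and since that assembly is not the one the authors aligned to, no coordinates are given.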

Additional observations from a re-analysis of the deposited data

Results flagged for a closer look

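Contigs of fungal description lie outside the maize gene counts. Their share was above that of every control library in all 3 wounding libraries, in regurgitate replicates 1 and 2 and in larva replicate 1 (3.34%). It was not in regurgitate replicate 3 (0.087%) or in larva replicates 2 and 3 (0.247% and 0.26%). The median share was 0.26% in larva, 4.655% in regurgitate, 12.476% in wounding and 0.454% in control libraries. Most of it in wounding replicates 1 and 2 was described as of the genus Gibberella, which holds stalk rot fungi of maize, at 9.03% and 19.2% of the counts, with 5.53% in wounding replicate 3.

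Some contigs outside the maize gene counts belong to the chemistry of ACC. The 3 contigs described as ACC deaminase, an enzyme that breaks ACC down, were picked by that description without a filter on organism. They had 11 counts summed over larva libraries, 62 over regurgitate, 126 over wounding and 1 over control libraries. Of the regurgitate counts, 58 came from replicate 2, and regurgitate replicate 3 had 0. The 1 contig described as a fungal ACC synthase had 0 counts over larva libraries, 2 over regurgitate, 41 over wounding and 0 over control libraries, 29 of them in wounding replicate 2. None of these reads enter the maize values above.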

How the results depend on the processing

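Precision was limited by the spread of 3 libraries per treatment. Without 1 library at a time, genes called ran from 0 to 11 for larva against control (11 without control replicate 1), 0 to 665 for regurgitate against wounding (665 without regurgitate replicate 2), 5263 to 6835 for wounding against control, 0 (without control replicate 1) to 490 (without regurgitate replicate 3) for regurgitate against control, 5646 to 8453 for larva against wounding and 0 to 1538 (without regurgitate replicate 2) for the larva minus the regurgitate response. Counts of 0, 11, 7438, 245, 8302 and 233 genes in these comparisons became, with DESeq2, 273, 1633, 8016, 1707, 8544 and 1308. No filter on low counts gave 2 genes for larva against control and 110 for regurgitate against wounding. All 12 libraries in 1 fit gave 1788 for regurgitate against wounding and 1190 for regurgitate against control. With every feature scaled, 0 genes were called for regurgitate against wounding, 0 for regurgitate against control and 0 for the difference of responses, and the split of wounding against control was 2669 higher and 4961 lower in place of 3747 and 3691, that of larva against wounding 4787 higher and 2307 lower in place of 4086 and 4216, with a median log2 fold change of all genes of -0.27 and 0.35 under this scaling. The replicate block gave 0 genes for regurgitate against wounding, 0 for regurgitate against control, 47 for the difference of responses, 5404 for wounding against control and 6148 for larva against wounding, and under it the calls of acs2 in regurgitate against control (FDR 0.108) and of ACO31 in wounding against control (FDR 0.0559) were lost, with no other member's call changed. Of 539 member values under alternatives, 523 moved by less than 1 SD, the spread of log2 CPM between replicates, which was wide for some members. The sign differed from that of the main fit in 27 values, and 0 called values changed sign. The cause of these shifts was not tested.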

Other observations

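A further gene described as an ACC oxidase, AC148152.3_FG005, also varied widely between libraries of 1 treatment, and it was singled out after its values were seen. It was at 6.25, 90.8 and 100.5 CPM in larva replicates 1 to 3, at 42.8, 3.28 and 4.19 CPM in regurgitate replicates, at 8.45, 2.37 and 1.11 CPM in wounding replicates, and at 1.24, 32.9 and 155.7 CPM in control replicates. Among the control replicates, replicate 1 had the most GRMZM2G013448 and the least of it. Larva was higher than wounding by a log2 fold change of 3.99 (edgeR FDR 0.0244), although the groups overlapped, and wounding against control gave -3.94 (FDR 0.0726).

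The 4 markers of C4 leaf cells, PEP carboxylase, PPDK, NADP-malic enzyme and the Rubisco small subunit, summed to 3893 to 4306 CPM in larva, 2611 to 2878 CPM in regurgitate, 1944 to 3454 CPM in wounding and 2078 to 3927 CPM in control libraries. Most of each sum was the Rubisco small subunit, at 1719 CPM or more in each library. PEP carboxylase ran from 88.5 to 273 CPM in larva, 15.0 to 118 CPM in regurgitate, 5.77 to 56.3 CPM in wounding and 12.7 to 308 CPM in control libraries.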
